A study of Mus musculus with 24 samples.

Results

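The myelin protein genes followed here are Mbp, Mobp, Mal, Cldn11, Mag, Cnp, Mog, Opalin and Ugt8a, 9 genes chosen by name from the 55385 genes of a count table, of which 36766 had at least 1 count. All 9 passed the filter on low counts in each comparison. RNA-Seq had been done on the HIP and the EC of 6 Ts65Dn mice and 6 wt littermates, males aged 5 to 6 months on an F1 B6C3B background, which gave 24 libraries in 4 groups of 6. Ts65Dn mice, a model of Down syndrome (DS), carry an additional minichromosome that holds the distal part of Mmu16 and a centromeric part of Mmu17, so that the genes of both parts are present in an additional copy, also those of Mmu17 that have no counterpart on human chromosome 21. The wt mice lack that minichromosome, and no treatment was named for either group. None of the 9 genes is on Mmu16, and Mog, on Mmu17, lies outside the triplicated part. The comparisons addressed whether these genes differed between the regions, between the genotypes, and in their response to the genotype by region.

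Myelin is made in the brain by oligodendrocytes, which wrap axons in many layers of their own membrane so that action potentials jump from node to node. Its compact layers are held together by MBP and its lipids include galactosylceramide, whereas MAG and CNP sit in the uncompacted inner tongue and MOG on the outermost surface. The genes of these proteins are switched on together as oligodendrocyte precursors mature, under SOX10 and MYRF, with OLIG1 and OLIG2 acting earlier in the lineage. Olig1 and Olig2 are on the part of Mmu16 that is triplicated in Ts65Dn.

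Promoters are shown for the members at both ends of the regional difference described below, Opalin and Mobp with the highest HIP over EC folds and Ugt8a and Cnp with the lowest. Each is a window from 250 bases before to 50 bases after an annotated start in RefSeq on GRCm38.p6, read on the strand of the gene. The table of promoters held 8 of the 9 genes, and Mbp is named only. The windows are chr19:41077064-41077363 (minus strand) for Opalin, chr9:120149492-120149791 (plus strand) for Mobp, chr3:125938603-125938902 (minus strand) for Ugt8a and chr11:100574689-100574988 (plus strand) for Cnp. Capitals mark ACAAAG, a core to which SOX factors bind, on either strand, so that CTTTGT is the same core on the other strand.
Opalin: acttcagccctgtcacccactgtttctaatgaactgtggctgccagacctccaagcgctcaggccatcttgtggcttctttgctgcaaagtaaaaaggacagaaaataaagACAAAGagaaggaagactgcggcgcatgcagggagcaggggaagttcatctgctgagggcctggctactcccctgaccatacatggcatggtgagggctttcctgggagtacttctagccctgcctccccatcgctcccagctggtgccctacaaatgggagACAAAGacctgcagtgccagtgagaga
Mobp: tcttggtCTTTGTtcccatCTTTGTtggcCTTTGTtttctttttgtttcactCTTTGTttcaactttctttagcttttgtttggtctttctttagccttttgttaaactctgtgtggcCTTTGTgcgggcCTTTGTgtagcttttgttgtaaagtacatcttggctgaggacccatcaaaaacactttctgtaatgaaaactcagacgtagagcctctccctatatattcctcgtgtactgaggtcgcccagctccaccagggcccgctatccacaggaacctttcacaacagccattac
Ugt8a: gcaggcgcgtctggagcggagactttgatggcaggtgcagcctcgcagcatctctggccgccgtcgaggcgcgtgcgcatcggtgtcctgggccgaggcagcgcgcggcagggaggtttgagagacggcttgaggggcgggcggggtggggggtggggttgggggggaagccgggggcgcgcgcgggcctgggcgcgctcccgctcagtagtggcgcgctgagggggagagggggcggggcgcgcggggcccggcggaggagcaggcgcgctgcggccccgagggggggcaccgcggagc
Cnp: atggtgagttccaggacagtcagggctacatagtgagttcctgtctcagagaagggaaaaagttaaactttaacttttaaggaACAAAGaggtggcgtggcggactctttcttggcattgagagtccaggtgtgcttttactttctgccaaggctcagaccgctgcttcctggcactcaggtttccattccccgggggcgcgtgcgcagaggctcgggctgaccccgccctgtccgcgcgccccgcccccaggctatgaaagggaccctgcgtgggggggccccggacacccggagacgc

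The ACAAAG core was found in the windows of Mobp, Mag, Cnp and Opalin, 4 of the 8 genes, and in 18.7% of the 32851 windows in the table, both strands being searched. Mobp held 6 copies, all on the minus strand and from 243 to 120 bases before the start. Opalin held 2, 139 bases before and 24 bases after the start. The related core ACAATG was in 0 of the 8 genes and in 12.6% of all windows. CTGGCAC, a core of the sequence bound by MYRF, was in the windows of Mag, Cnp and Opalin against 5.01% of all windows, and its variant CTGGTAC in that of Mog against 2.24%. Mag has 3 annotated starts, and ACAAAG and CTGGCAC lay in the windows of 2 of them. Those windows overlap and hold the same single copy of each core. A gene was counted if any of its windows held the motif, whereas the percentages over all are of single windows. The GC box GGGCGG was in the windows of Cldn11, Cnp and Ugt8a (35.7% of all windows), CCAAT in those of Cldn11 and Mag (37.4%), the E-box CAGCTG in that of Opalin (16.3%) and TATAAA in none of the 8 (13.6%). GC content ran from 43.3% in the window of Mobp to 78.3% in that of Ugt8a, with a median of 52.7% over all windows. The promoters of these genes therefore had no single motif of this search in common, and a match of letters is not evidence of binding.

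Library totals ranged from 23128589 to 40476492 counts on genes, and the 9 genes had between 110 counts (Opalin) and 159054 counts (Mbp) in a library. Together they took 0.514% to 0.788% of all counts in the HIP libraries and 0.103% to 0.219% in the EC libraries. Over 26 genes of the triplicated part of Mmu16, the median level relative to the wt mean was 1.49 to 1.53 in 5 of the 6 Ts65Dn HIP libraries and 1.48 to 1.52 in 5 of the 6 Ts65Dn EC libraries. The libraries labelled Ts65Dn replicate 3 had 1.02 (HIP) and 0.973 (EC), just outside the range of the wt libraries, which was 0.992 to 1.01 for the HIP and 0.985 to 1.01 for the EC. That label was kept. The tests of the members, and the genotype values of the named lineage genes, are also given without it, while levels, spreads and correlations between mice include it. Of the markers of the labelled regions, all 4 genes for the dentate gyrus and CA fields (Prox1, Dsp, C1ql2, Spink8) were higher in the HIP and all 4 for cortex (among them Tbr1, Rorb and Lamp5) higher in the EC, in both genotypes.

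All 9 myelin protein genes had higher levels in the HIP than in the EC, in wt and in Ts65Dn mice, and for none of them did any HIP library overlap any EC library. Of all genes tested, 61.3% were called between the regions in wt and 52.3% in Ts65Dn mice, 31.0% and 26.6% as higher in the HIP. The share of all genes without overlap between the HIP and EC libraries was not counted, so the lack of overlap has no background here. Levels are given as CPM, that is counts relative to the TMM-adjusted size of the library. The lowest HIP library exceeded the highest EC library by 1.63-fold for Ugt8a and by 2.65-fold for Mobp, the ends of the range over the 9 genes. In bulk tissue, fewer cells of a type and less RNA per cell cannot be told apart, so these levels describe the tissue and not the single oligodendrocyte.

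**Figure D1:**
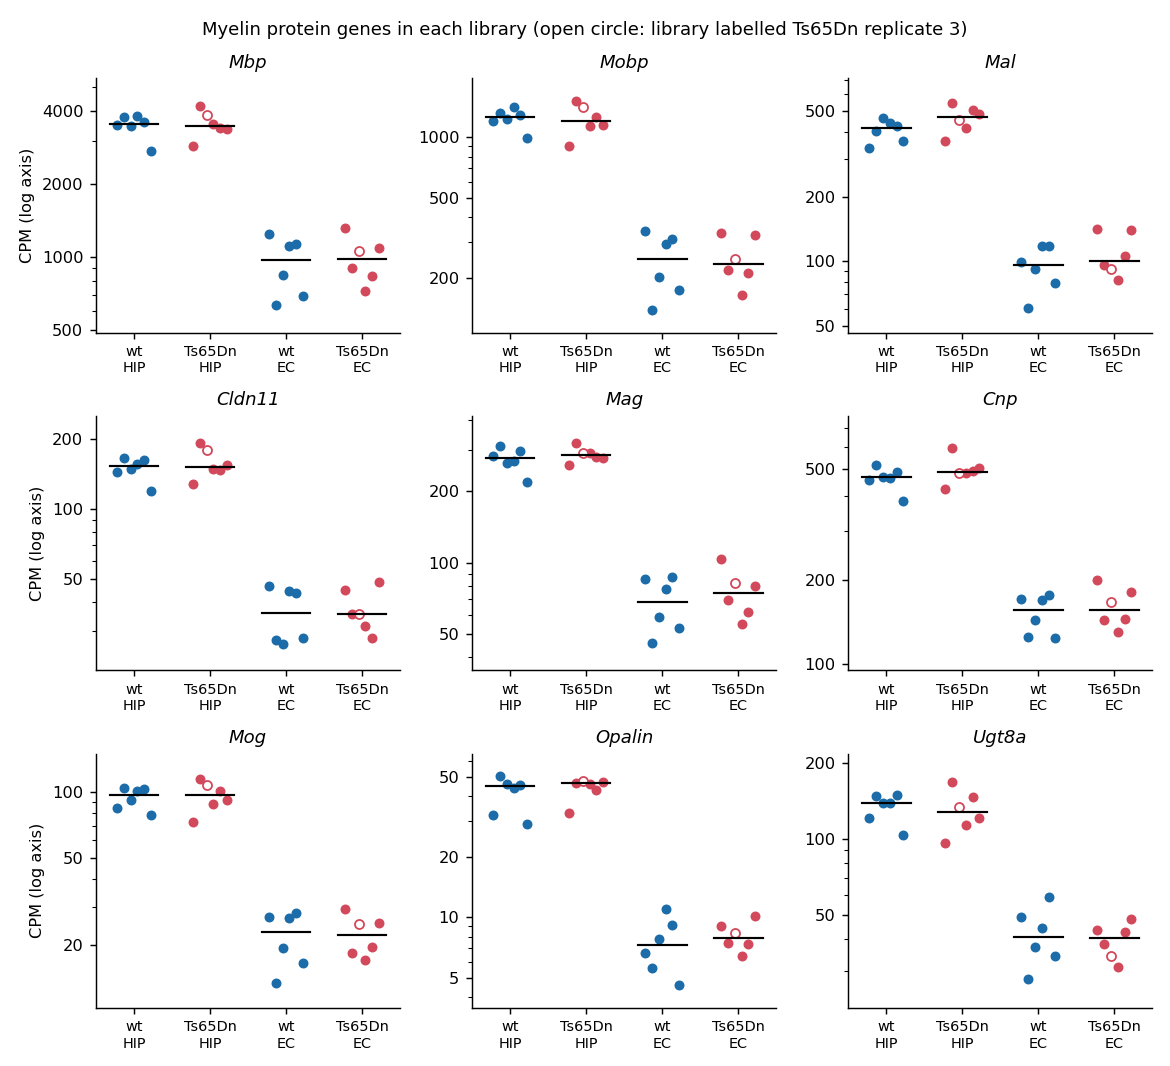
CPM of each myelin protein gene (log axis, a panel per gene) in every library of the wt and Ts65Dn HIP and EC, with points for libraries, a bar for the median of 6 and an open circle for the library labelled Ts65Dn replicate 3. In every panel the 12 HIP libraries lie above the 12 EC libraries, while wt and Ts65Dn overlap within each region.

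Among the proteins of compact myelin, Mbp encodes myelin basic protein, which holds the cytoplasmic faces of the membrane together, and the gene lies at chr18:82475146-82585637 (GRCm38, plus strand). Mbp had from 2730 to 3820 CPM in the wt HIP (median 3550), from 2870 to 4190 CPM in the Ts65Dn HIP (median 3460), from 636 to 1240 CPM in the wt EC (median 974) and from 724 to 1320 CPM in the Ts65Dn EC (median 979). It was the most abundant of the 9 in each library group, and in the HIP its lowest libraries were wt replicate 6 and Ts65Dn replicate 1. Mobp, for a small basic protein of the same compartment (chr9:120149707-120181484, plus strand), had from 993 to 1420 CPM in the wt HIP (median 1260), from 906 to 1510 CPM in the Ts65Dn HIP (median 1210), from 138 to 342 CPM in the wt EC (median 247) and from 163 to 332 CPM in the Ts65Dn EC (median 233). Its EC levels were the most spread of the 9, with a coefficient of variation of 34.4% in wt. Mal, for a proteolipid involved in sorting membrane proteins (chr2:127633226-127656695, minus strand), had from 338 to 467 CPM in the wt HIP (median 417), from 365 to 548 CPM in the Ts65Dn HIP (median 472), from 60.3 to 118 CPM in the wt EC (median 95.6) and from 81.4 to 142 CPM in the Ts65Dn EC (median 100). For Mal, 3 Ts65Dn HIP libraries and 2 Ts65Dn EC libraries lay above the wt range and none below it.

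Cldn11 encodes claudin 11, which forms the tight junctions that seal the myelin spiral (chr3:31149920-31164324, plus strand). It had from 120 to 166 CPM in the wt HIP (median 152), from 128 to 193 CPM in the Ts65Dn HIP (median 152), from 26.5 to 46.7 CPM in the wt EC (median 35.9) and from 28.1 to 48.5 CPM in the Ts65Dn EC (median 35.6). The medians of the genotypes were thus nearly equal in both regions.

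Of the proteins of uncompacted myelin, Mag encodes myelin-associated glycoprotein, which faces the axon (chr7:30899176-30914873, minus strand). Mag had from 218 to 310 CPM in the wt HIP (median 276), from 259 to 320 CPM in the Ts65Dn HIP (median 284), from 45.8 to 86.9 CPM in the wt EC (median 68.5) and from 54.9 to 103 CPM in the Ts65Dn EC (median 74.6). Its Ts65Dn HIP libraries were the least spread of all members and groups, with a coefficient of variation of 7.05%. Cnp, for the enzyme 2',3'-cyclic nucleotide 3'-phosphodiesterase that keeps cytoplasmic channels open in myelin (chr11:100574904-100591729, plus strand), had from 383 to 517 CPM in the wt HIP (median 466), from 423 to 595 CPM in the Ts65Dn HIP (median 487), from 123 to 176 CPM in the wt EC (median 156) and from 130 to 200 CPM in the Ts65Dn EC (median 156). Dnajc7, on the opposite strand, overlaps Cnp and had 47.0% of its count, and the strand setting of the counting is not given in the sources used here, so some Cnp reads may belong to Dnajc7.

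Mog and Opalin encode surface proteins of mature oligodendrocytes. Mog (chr17:37010743-37023398, minus strand) had from 78.3 to 104 CPM in the wt HIP (median 96.0), from 72.8 to 114 CPM in the Ts65Dn HIP (median 96.5), from 13.5 to 27.9 CPM in the wt EC (median 23.0) and from 17.1 to 29.2 CPM in the Ts65Dn EC (median 22.4). Opalin, for a transmembrane glycoprotein (chr19:41061710-41077113, minus strand), had from 29.1 to 50.1 CPM in the wt HIP (median 44.8), from 32.9 to 47.4 CPM in the Ts65Dn HIP (median 46.3), from 4.6 to 11 CPM in the wt EC (median 7.22) and from 6.41 to 10.2 CPM in the Ts65Dn EC (median 7.87). It was the least abundant of the 9 in every group, and its lowest HIP libraries were wt replicates 6 and 1, followed by Ts65Dn replicate 1. Ugt8a, for the enzyme that makes galactosylceramide from ceramide (chr3:125865271-125938619, minus strand), had from 103 to 149 CPM in the wt HIP (median 138), from 96.3 to 167 CPM in the Ts65Dn HIP (median 128), from 27.9 to 58.9 CPM in the wt EC (median 40.8) and from 31.1 to 48.3 CPM in the Ts65Dn EC (median 40.5).

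Divided by exonic length, the mean levels in the wt HIP ran from 411 CPM per kb for Mbp to 14.0 CPM per kb for Opalin, in the order Mbp, Mobp, Mal, Cnp, Cldn11, Mag, Mog, Ugt8a and Opalin. The order was the same in the Ts65Dn HIP. Mobp with 182 and Mal with 147 CPM per kb had overlapping ranges over the 6 wt libraries, as had Mal and Cnp (127), Cldn11 (79.9) and Mag (67.0), and Mag and Mog (54.9), while the other neighbours in the order did not overlap. In the wt EC, Cnp (41.6 CPM per kb) came second to Mbp (111), ahead of Mobp (35.5) and Mal (33.9), and the ranges of these last 3 overlapped. In the Ts65Dn EC, Mal (39.4 CPM per kb) and Mobp (36.4) changed places, again with overlapping ranges. Opalin was last in both EC groups, with 2.53 CPM per kb in wt and 2.76 in Ts65Dn, below every library of the next gene.

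In wt mice, the log2 fold change of HIP over EC ran from 1.62 for Cnp (SE 0.08) to 2.48 for Opalin (SE 0.12), which is 3.07-fold to 5.58-fold, with a median over the 9 genes of 2.08 (4.21-fold). All 9 were called as higher in the HIP by edgeR's quasi-likelihood test with a term for each mouse, with adjusted p-values from 6.42e-08 (Cnp) to 1.17e-06 (Ugt8a). Of the 17196 genes tested, 61.3% were called in either direction and 31.0% as higher in the HIP, so a call alone was common, and the median size of the log2 fold change over all genes was 0.276. By rank of the log2 fold change, the 9 genes were between 214 and 547 from the top. The other members had log2 fold changes of 1.69 (Ugt8a, SE 0.12), 1.92 (Mbp, SE 0.12), 2.03 (Mag, SE 0.12), 2.08 (Cldn11, SE 0.12), 2.13 (Mog, SE 0.13), 2.13 (Mal, SE 0.11) and 2.42 (Mobp, SE 0.16).

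In Ts65Dn mice, the same test called all 9 genes, with log2 fold changes from 1.63 (Cnp, SE 0.11) to 2.42 (Opalin, SE 0.12) and a median of 2.09, or 4.25-fold. Over 17314 genes, 52.3% were called in either direction, 26.6% as higher in the HIP, and the median size of the log2 fold change was 0.264. Without the mouse labelled Ts65Dn replicate 3, the 9 log2 fold changes ran from 1.64 to 2.40 and all 9 were called, with adjusted p-values of 1.31e-05 or lower by edgeR's quasi-likelihood test.

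**Figure D2:**
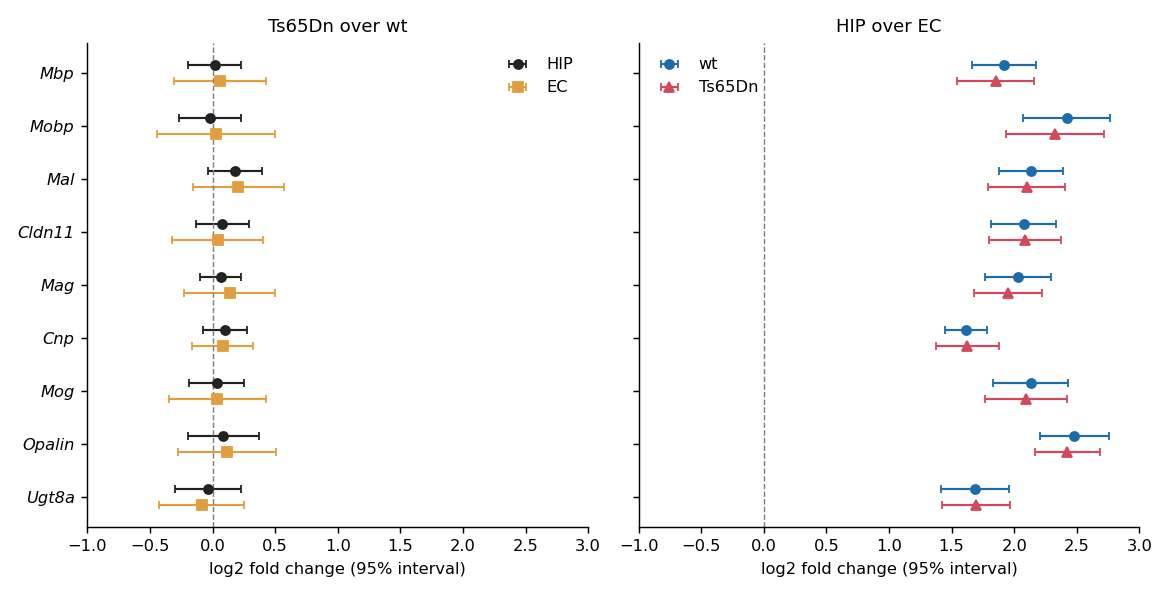
Fitted log2 fold changes with 95% intervals for each gene, Ts65Dn over wt in the HIP and EC on the left and HIP over EC in wt and Ts65Dn on the right, on the same axis. The intervals of Ts65Dn over wt all include 0, whereas those of HIP over EC begin at 1.38 or higher.

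Each mouse gave both regions, so the fold of HIP over EC could be taken within a mouse. It was above 1 for each of the 9 genes in each of the 12 mice and ran from 2.11 (Cnp in Ts65Dn replicate 1) to 9.60 (Mobp in wt replicate 2). The median over the mice was 5.76 for Opalin, 5.73 for Mobp, 4.70 for Mal, 4.52 for Cldn11, 4.49 for Mog, 3.83 for Mag, 3.78 for Mbp, 3.27 for Ugt8a and 3.0 for Cnp. The genes kept much of this order within the mice, Opalin being among the 2 highest folds in 12 of 12 mice and Mobp in 10, and Cnp being among the 2 lowest in 12 of 12 and Ugt8a in 10. The mice differed as a whole, since Ts65Dn replicate 1 had the lowest and wt replicate 2 the highest fold for all 9 genes. The median fold over the 9 genes was 2.51 in that Ts65Dn mouse and 6.73 in that wt mouse.

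**Figure D3:**
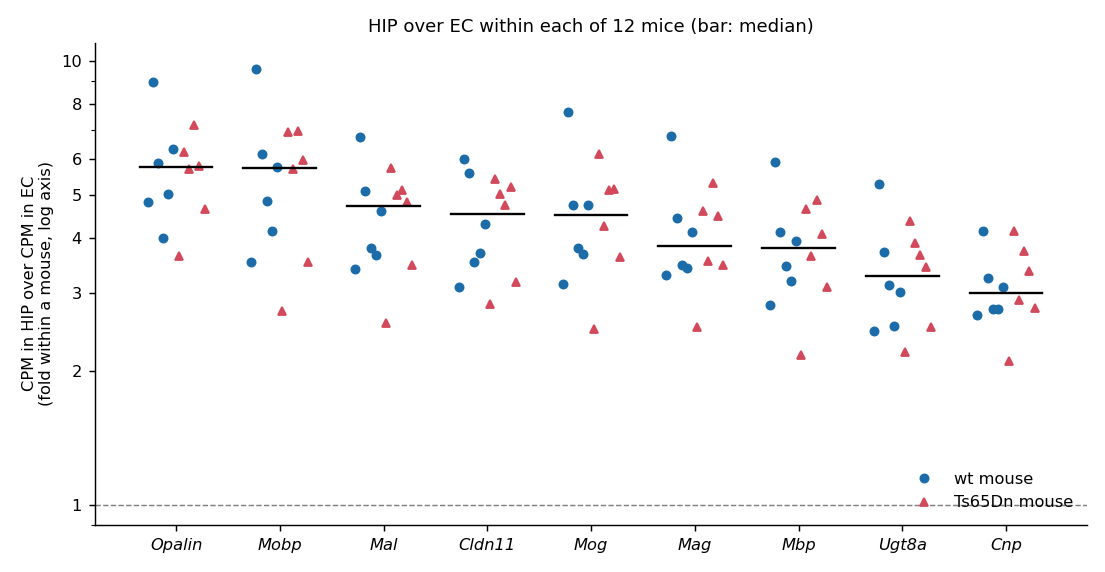
Fold of CPM in the HIP over CPM in the EC of the same mouse (log axis) for each gene, ordered by the median (bar), with circles for 6 wt and triangles for 6 Ts65Dn mice and a dashed line at no difference. Medians fall from 5.76 for Opalin to 3.0 for Cnp, and all points lie above 2.

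The 9 genes rose and fell together from mouse to mouse. In the HIP, wt replicate 6 and Ts65Dn replicate 1 were among the 3 lowest of the 12 mice for all 9 genes, at a median of 0.792 and 0.817 of the median mouse. Ts65Dn replicate 2 was highest for 8 of the 9, at 1.21. In the EC, wt replicates 2 and 6 were among the 3 lowest for all 9 genes, at 0.650 and 0.741 of the median mouse, and Ts65Dn replicate 4 for 8 of the 9, at 0.767. Ts65Dn replicate 1, low in the HIP, was the highest in the EC for 5 of the 9, at a median of 1.31. The mean log2 CPM of the 9 genes in the HIP had no clear relation to that in the EC of the same mouse (Pearson's r = -0.07, Spearman's rho = -0.07 over 12 mice, and r = -0.21 without the 2 mice farthest from the median).

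**Figure D4:**
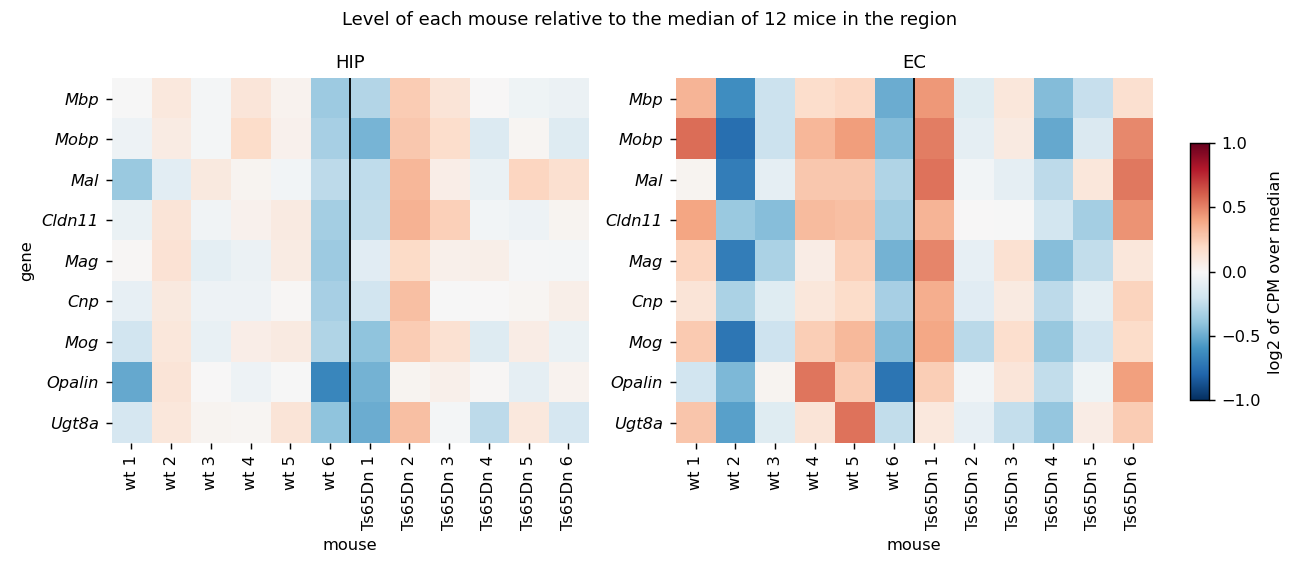
CPM of each gene (rows) in each mouse (columns) relative to the median of the 12 mice in that region, as log2 on a colour scale, HIP on the left and EC on the right. Whole columns share a colour, with wt 6 and Ts65Dn 1 low in the HIP and wt 2, wt 6 and Ts65Dn 4 low in the EC.

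Across 12 mice, the 36 pairs of members had a Pearson's r of log2 CPM from 0.45 (Mal with Mag) to 0.95 (Mbp with Cldn11) in the HIP, with a median of 0.791, and from 0.627 (Opalin with Ugt8a) to 0.984 (Mbp with Mag) in the EC, with a median of 0.858. Within the 6 mice of a group the median r was 0.876 and 0.846 in the wt and Ts65Dn HIP and 0.922 and 0.868 in the wt and Ts65Dn EC. The points share the scaling of their library, and these values were given no test. The spread between mice of one group was wider in the EC. The SD of log2 CPM had a median over the 9 genes of 0.393 in the wt EC and 0.304 in the Ts65Dn EC, against 0.155 and 0.170 over 16592 genes, and of 0.176 in the wt HIP and 0.210 in the Ts65Dn HIP, against 0.139 and 0.169.

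Other cell types were examined beside this variation, as a mean of standardised log2 CPM over each marker list, in 12 mice of a region. In the EC, the members' mean ran with that of the 4 cortex markers (r = 0.749, rho = 0.692, and 0.807 without the 2 farthest mice) and opposite to those of 5 microglia markers (r = -0.685, rho = -0.643, and -0.660) and 3 markers of meningeal fibroblasts (r = -0.626, rho = -0.587, and -0.744). Astrocyte markers went opposite to the members (r = -0.654, rho = -0.706, and -0.453) and striatal ones with them (r = 0.576, rho = 0.601, and 0.420). In the HIP, several of these values turned on the 2 farthest mice. Without them, r went from 0.145 to 0.710 for meningeal fibroblasts (rho = 0.336 with all mice), from 0.0633 to 0.469 for choroid plexus (rho = 0.336) and from -0.450 to -0.139 for Schwann cells (rho = -0.503). Neuronal markers had r = -0.449 (rho = -0.601, and -0.547 without these mice), endothelial ones 0.402 (0.385, and 0.497) and those of the dentate gyrus and CA fields 0.505 (0.231, and 0.424). The lists for astrocytes, microglia, striatum and cortex had an r from -0.258 to 0.215, and from -0.181 to 0.299 without these mice. Schwann cell markers, of the myelin of peripheral nerves, summed to 5.54 CPM or less over 4 genes in any library, with no count of Pmp2 in any of the 24 libraries. The part of these cell types in the members' variation was not tested.

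Between the genotypes, none of the 9 genes was called in either region. In the HIP, the log2 fold change of Ts65Dn over wt ran from -0.04 (Ugt8a, SE 0.12) to 0.18 (Mal, SE 0.10), with a median of 0.06, and the adjusted p-values of edgeR's quasi-likelihood test from 0.439 (Mal) to 0.955 (Mbp). Of the 17355 genes tested, 1.04% were called. The 95% intervals of the 9 genes lay between folds of 0.811 and 1.32, so that a larger change of any member lay outside its interval. In the EC, the log2 fold change ran from -0.09 (Ugt8a, SE 0.16) to 0.21 (Mal, SE 0.17), with a median of 0.06 and adjusted p-values from 0.558 (Mal) to 0.968 (Mobp), where 2.50% of 17049 genes were called. The intervals in the EC were wider and lay between folds of 0.735 and 1.48. Unadjusted p-values under 0.05 were reached by 0 of the 9 genes in either region, the lowest being 0.0947 (HIP) and 0.243 (EC), and DESeq2 also called none of the 9.

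For no member did the Ts65Dn libraries of a region lie wholly above or below the wt libraries. The share of all genes without overlap between the genotypes was not counted, so this has no background here. The nearest to a difference was Mal, the mean of which was 13.6% higher in the Ts65Dn HIP and 16.1% higher in the Ts65Dn EC, a difference that did not pass the test. Opalin had all 6 Ts65Dn libraries within the wt range in both regions. Without the library labelled Ts65Dn replicate 3, again 0 of the 9 were called. The log2 fold changes then ran from -0.07 to 0.18 for the HIP (adjusted p of at least 0.417 by edgeR's quasi-likelihood test), while those of the EC lay between -0.05 and 0.25 (adjusted p of at least 0.474).

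The Ts65Dn effect was compared between the regions by an interaction term, on 24 libraries with a term for each mouse. For the 9 genes it ran from -0.09 (Mobp, SE 0.25) to 0.01 (Cldn11, SE 0.19) on the log2 scale, and the 95% intervals lay between -0.64 and 0.45. None was called by edgeR's quasi-likelihood test (adjusted p = 1 for each), by DESeq2 or at an unadjusted p under 0.05. Over all 18109 genes 0 were called, or 0%, and 742 had an unadjusted p under 0.05. Without Ts65Dn replicate 3, the values ran from -0.13 to 0.03.

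Other genes of the oligodendrocyte lineage were read from lists beside the members. The counts of list genes between the regions, here and in the next paragraphs, stand beside the shares over all genes. Those were 61.3% called in wt and 52.3% in Ts65Dn mice, of which 31.0% and 26.6% of all genes were higher in the HIP. Of 17 other myelin membrane and junction proteins, 16 were higher in the HIP and 1 lower, in wt and in Ts65Dn mice, with a median log2 fold change of 1.81 in wt and 1.77 in Ts65Dn. Hapln2, for a protein of the matrix at nodes, and Anln, for anillin, had the largest changes of that list, at 2.55 and 2.44 in wt. Of 22 other products of mature oligodendrocytes, 20 were higher in the HIP in each genotype, with medians of 1.18 and 1.2. The other 2 were lower in the HIP in wt, and 2 were not called in Ts65Dn. Adamts4, for a matrix protease, led the list at 1.95 in wt and 1.87 in Ts65Dn. Without Ts65Dn replicate 3, 16 of the 17 and 19 of the 22 were higher in the HIP than in the EC of Ts65Dn mice. The medians of HIP over EC were then 1.70 and 1.16, and none was called as lower in the HIP.

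All 10 oligodendrocyte transcription factors were higher in the HIP in both genotypes, with a median of 0.85 in wt and 0.95 in Ts65Dn (0.75 without Ts65Dn replicate 3). Myrf, which drives the genes of mature myelin, had a log2 fold change of 2.03 in wt (SE 0.10, adjusted p = 9.27e-08 by edgeR's quasi-likelihood test) and Nkx6-2 of 1.97. Sox10 had 1.33, Olig2 0.78 and Olig1 0.68 in wt. Of 10 genes of precursors and newly formed oligodendrocytes, 4 were higher and 3 lower in the HIP in wt, and 3 higher and 2 lower in Ts65Dn, with medians of 0.10 and 0.05. Over all genes, 31.0% were called as higher in the HIP in wt and 26.6% in Ts65Dn, so the counts of this list were near the background. Without Ts65Dn replicate 3, 3 of the 10 genes were higher and 3 lower in the HIP than in the EC of Ts65Dn mice, with a median of 0.08. Enpp6, a marker of newly formed oligodendrocytes, was at 2.09 in wt and Neu4, for a sialidase, at 0.69, whereas Pdgfra and Cspg4, which define precursors, were at -0.26 and -0.35. These last 2 were named after their values were seen.

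The 12 genes of myelin lipid and cholesterol synthesis split evenly, 6 higher and 6 lower in the HIP, in both genotypes. The 6 higher were Aspa (2.06 in wt), which frees acetate for lipid synthesis, Fa2h (1.96), which hydroxylates the fatty acids of galactolipids, Elovl7, Cers2, Elovl1 and Gal3st1, all of sphingolipid or fatty acid metabolism. Among the 6 lower were Fdft1 (-0.75 in wt), Sqle (-0.46), Srebf2 (-0.41) and Hmgcs1 (-0.36), of which Srebf2 encodes a regulator and the others enzymes of cholesterol synthesis, which neurons and astrocytes also express. The genes of this list other than Aspa and Fa2h were named after their values were seen.

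**Figure D5:**
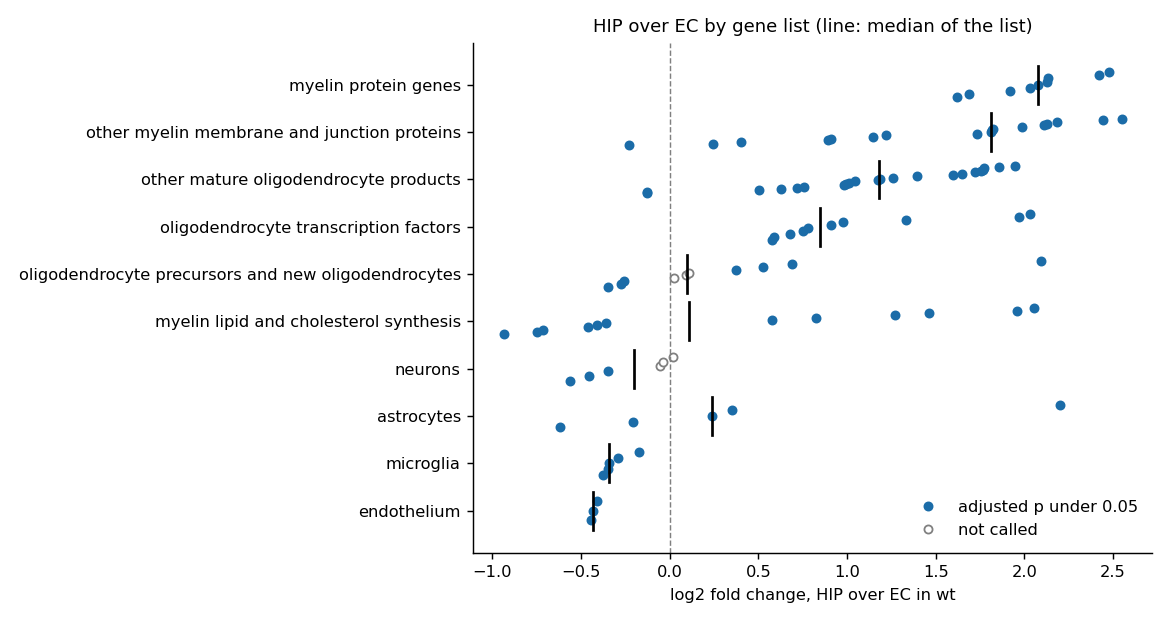
Log2 fold change of HIP over EC in wt mice for each gene of 10 lists, with filled points for genes called at an adjusted p under 0.05, open points for the others and a line at the median of each list. The myelin protein genes lie between 1.62 and 2.48, cholesterol and lipid genes lie on both sides of 0, and markers of neurons, microglia and endothelium lie mostly below 0.

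Markers of other cells went other ways between the regions. In wt mice, 0 of 6 neuronal markers were higher in the HIP and 3 were lower (Slc17a7 -0.56, Syt1 -0.46), all 5 microglial markers were lower (Csf1r -0.38, Tmem119 -0.35), as were all 3 endothelial ones (Flt1 -0.44, Cldn5 -0.43). Of 5 astrocyte markers, 3 were higher and 2 lower, with Gfap at 2.20 and Aldh1l1 at -0.62. Choroid plexus markers (Ttr, Kl, Folr1) were higher in the HIP, all 3 of 3, and their sum had a lowest value of 85.2 and a median of 1270 CPM over the wt HIP libraries and of 50.8 and 1900 CPM over the Ts65Dn HIP libraries, against 48.2 CPM or less in the EC. It was highest in wt replicate 2 and Ts65Dn replicate 1, at similar levels. Of 4 striatal markers, among them Drd1, Adora2a and Rgs9, 3 were lower in the HIP in each genotype, and their sum was 26.7 CPM or less in the HIP and 89.0 to 154 CPM in the EC. Of 3 markers of meningeal fibroblasts, 0 were called in any comparison by edgeR's quasi-likelihood test. The part of these cells in the members' regional difference was not tested.

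Of 10 oligodendrocyte transcription factors, 2 were called between the genotypes in each region. Olig1 and Olig2, of which Ts65Dn mice carry an additional copy, were higher in Ts65Dn. Olig1 had from 79.4 to 96.7 CPM in the wt HIP and from 103 to 153 CPM in the Ts65Dn HIP, and from 49.6 to 64.1 CPM in the wt EC and from 69.4 to 89.7 CPM in the Ts65Dn EC, without overlap. The share of all genes that lay apart in this way was not counted. The log2 fold change of Olig1 was 0.51 in the HIP (SE 0.09, adjusted p = 0.0167) and 0.54 in the EC (SE 0.08, adjusted p = 0.00519) by edgeR's quasi-likelihood test. Olig2 had from 18.9 to 32.6 CPM in the wt HIP and from 34.4 to 43.2 CPM in the Ts65Dn HIP, and from 12.5 to 17.4 CPM in the wt EC and from 19.4 to 24.2 CPM in the Ts65Dn EC, with log2 fold changes of 0.51 (SE 0.11, adjusted p = 0.0383) and 0.56 (SE 0.09, adjusted p = 0.0068) in the same test. The library labelled Ts65Dn replicate 3 was the lowest Ts65Dn library for both genes in both regions, yet above the wt range. Without it, the log2 fold change of Olig1 was 0.57 (HIP) and 0.58 (EC) and that of Olig2 0.54 and 0.61, and both were called in each region. Olig1 was called in both regions, and Olig2 in the EC, in each of 12 fits that left out 1 mouse, whereas Olig2 was called in the HIP in 3 of them (without Ts65Dn replicate 3 or wt replicate 1 or 6), with adjusted p-values from 0.0316 to 0.0994 by edgeR's quasi-likelihood test.

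Sox10 and Myrf, of the same list, were not called. Sox10 had log2 fold changes of 0.12 (HIP) and 0.10 (EC; adjusted p = 0.627 and 0.75), and Myrf of 0.16 and 0.21 (adjusted p = 0.428 and 0.49), in edgeR's quasi-likelihood test. The library labelled Ts65Dn replicate 3 was the lowest of the EC for Sox10, at 12.7 CPM. Without that mouse, Sox10 was at 0.17 (HIP) and 0.19 (EC; adjusted p = 0.41 and 0.309) and Myrf at 0.13 and 0.21 (adjusted p = 0.494 and 0.52), in the same test. Of the 71 genes of the 5 lists of the lineage, 3 were called in the HIP (Olig1, Olig2 and Tubb4a) and 4 in the EC (Olig1, Olig2, Gamt and Gpm6b), against the backgrounds of 1.04% and 2.50% given above, and the first 2 are triplicated. Tubb4a, for a tubulin of oligodendrocytes and neurons, was at 0.30 in the HIP (SE 0.06, adjusted p = 0.0299). Gamt, for an enzyme of creatine synthesis, was at 0.41 in the EC (adjusted p = 0.0408), and Gpm6b, for a membrane glycoprotein that neurons and astrocytes also express, at -0.26 (adjusted p = 0.0236). DESeq2 called Tubb4a and Gamt in both regions, and Gpm6b in the EC only. In the region not given above for it, each of these genes had the same sign and was not called by edgeR's quasi-likelihood test. Tubb4a was at 0.18 in the EC (adjusted p = 0.0614 in that test). In the HIP, Gamt was at 0.37 and Gpm6b at -0.17 (adjusted p = 0.11 and 0.185 in that test). Without the library labelled Ts65Dn replicate 3, Gamt was no longer called in the EC, unlike Gpm6b (-0.23, adjusted p = 0.0266), and Tubb4a was at 0.34 in the HIP (adjusted p = 0.00246). Gamt was then at 0.37 (adjusted p = 0.0626 by edgeR's quasi-likelihood test). The calls of these genes also changed with the mouse left out, while their log2 fold changes kept their sign. They ran from 0.27 to 0.34 for Tubb4a in the HIP. In the EC they ran from 0.37 to 0.45 for Gamt and from -0.29 to -0.23 for Gpm6b. Of 12 fits that each left out 1 mouse, Tubb4a was called in the HIP in 3 (without Ts65Dn replicate 3 or 5 or wt replicate 1), with adjusted p-values from 0.00246 to 0.0785, and Gamt in the EC in 3 (without Ts65Dn replicate 6 or wt replicate 2 or 6), from 0.0294 to 0.0985. Gpm6b was called in the EC in 7, not without Ts65Dn replicate 1 or 4 or wt replicate 1, 3 or 4, with values from 0.0212 to 0.0669. P2ry12, a marker of microglia, was lower in Ts65Dn in both regions, at -0.27 in the HIP (adjusted p = 0.0422) and -0.45 in the EC (adjusted p = 0.0226), the only one of 5 microglial markers called. It was called in 4 of the 12 fits in the HIP (adjusted p from 0.0392 to 0.108) and in 9 in the EC (from 0.0209 to 0.0606). The part of microglia in the genotype comparison of the members was not tested.

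The genes whose levels went most like the mean of the 9 members over the 12 mice of each region included Tmem88b, Bcas1, Slc44a1, Adamts4, Gpr37, Fbxo32 and D7Ertd443e, taken from the 8 with the highest of the smaller r of both regions. The r of these 7 lay between 0.879 and 0.975 for the HIP, and between 0.879 and 0.953 for the EC. Tmem88b had r = 0.975 in the HIP (0.930 without the 2 farthest mice) and 0.944 in the EC (0.945). Bcas1 had 0.926 and 0.948. Slc44a1 and Fbxo32 were higher in the HIP by less than the members, at log2 fold changes of 0.96 and 0.70 in wt, whereas Bcas1 had 2.19. None of the 7 was called between the genotypes, the log2 fold changes being between -0.04 and 0.10 (HIP) and between -0.09 and 0.08 (EC). These values are a description of 12 libraries a region and were given no test.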

How the data were processed

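RNA of the HIP and EC of 12 mice was sequenced as single-end reads of 50 bases. The authors aligned them to GRCm38 with Hisat2 and counted them per gene with HTSeq-count, and the deposited counts are raw. Per the submitters' processing notes, bcl2fastq 2.17.1.14 was used. The library kit is described differently in the methods and the labels, and the strand setting of the counting is not given in the sources used here. Of 55385 genes, 55144 were found in GENCODE vM21, which gave positions and exonic lengths.

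Counts were filtered with filterByExpr, scaled by TMM and tested with edgeR 4.0.16 in R 4.3.3 (limma 3.58.1), by quasi-likelihood with Benjamini-Hochberg adjustment over all genes tested and a threshold of 0.05. Regions were compared with a term for each mouse, since both regions of a mouse carry its number in the labels (correlation of deviations 0.226 to 0.486). Genotypes were compared within a region, without pairing. The labels give each mouse a number of its own, shared by its HIP and EC libraries. Alternatives were DESeq2 1.42.0, its size factors in edgeR, no filter, the replicate block, all 24 libraries in one fit, and leaving out each mouse. On simulated data, edgeR recovered 125 of 200 genes changed 1.5-fold in the HIP genotype comparison (17355 genes). CPM were computed with edgeR, and correlations and promoter motifs with Python 3.11.15, numpy 2.4.6 and pandas 2.3.3. Depth ran from 23128589 to 40476492 counts a library, and counting error is smallest for Mbp and largest for Opalin.

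The members and the lists (other myelin membrane and junction proteins, myelin lipid and cholesterol synthesis, other mature oligodendrocyte products, oligodendrocyte transcription factors, precursors, and markers of other cells and regions) were chosen with earlier results of these data known. Named genes are all 9 members, the 2 genes of a list with the largest change among those called, Olig1, Olig2, Sox10 and Myrf, and the 8 genes most like the members' mean, and others are said to have been named after their values were seen. Values of a few list genes are not reported here.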

Additional observations from a re-analysis of the deposited data

Results flagged for a closer look

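In 54 groups of 6 values (CPM of each member in each group, and the fold of HIP over EC in each genotype), 4 held a sample far from the others by the share of the whole range that its gap to the nearest value took (Dixon's 95% critical value for 6 samples). Chance flags about 1 in 20 groups. The wt HIP library of replicate 6 had 2730 CPM of Mbp, with a gap of 0.672 of the range. The Ts65Dn HIP library of replicate 1 had 32.9 CPM of Opalin, with a gap of 0.689. In wt replicate 2, the fold of HIP over EC was 6.77 for Mag and 7.67 for Mog, with gaps of 0.674 and 0.651.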

How the results depend on the processing

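Each of the 9 members was called as higher in the HIP in both genotypes, and 0 of 9 between genotypes or in the interaction, under every alternative run. Of the 71 other oligodendrocyte genes, 3 were called between genotypes in the HIP, against 6 with DESeq2, 0 with the replicate block and 1 to 3 when a mouse was left out. In the EC, 4 were called, against 6 with DESeq2, 2 with the replicate block and 2 to 6 when a mouse was left out. The cause was not tested. Mice of both genotypes with the same number did not deviate together (correlation -0.193 to 0.164), so the replicate block pairs by number only. With no filter on low counts, the interaction of Cldn11, Cnp and Ugt8a was -0.0009252, -0.0009988 and -0.001257.

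When a mouse was left out, uncalled log2 fold changes of members crossed 0. In the HIP they ran from -0.0417 to 0.0752 for Mbp, -0.0864 to 0.0561 for Mobp, -0.0235 to 0.103 for Mog and -0.12 to 0.0395 for Ugt8a. In the EC they ran from -0.0394 to 0.154 for Mbp, -0.092 to 0.15 for Mobp, -0.0485 to 0.127 for Cldn11, -0.068 to 0.123 for Mog and -0.181 to 0.0359 for Ugt8a. The interaction ran from -0.151 to 0.0806 for Mbp, -0.216 to 0.0791 for Mobp, -0.123 to 0.11 for Mal, -0.0829 to 0.128 for Cldn11, -0.161 to 0.0591 for Mag, -0.0755 to 0.119 for Cnp, -0.148 to 0.119 for Mog, -0.166 to 0.0742 for Opalin and -0.0783 to 0.147 for Ugt8a.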
